A study of Mus musculus with 4 samples.

Results

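The genes described here are 10 regulators of the G1 phase of the cell cycle and of the p53 pathway. They are the D-type cyclins Ccnd2 and Ccnd3, the kinases Cdk4 and Cdk6, the kinase inhibitors Cdkn2a, Cdkn2c, Cdkn1a and Cdkn1b, and the tumour suppressor Trp53 with its ubiquitin ligase Mdm2. Members were chosen by name, and each gene was read from a probe set that the platform annotation gives to that 1 symbol, using the brightest set (by its mean of 4 arrays) where there were several. By this rule 8 of the 10 genes were measured, among 19297 genes in all. Trp53 and Cdkn1a were not analysed here, since no probe set carried either as its single symbol.

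Spleens came from 2 leukaemic mice (RBP-J flox/flox;Ren1dcre/cre, 107 and 93 days old, spleens of 0.7 and 0.47 g for replicates 1 and 2) and 2 wild type mice (RBP-J flox/flox;Ren1d+/+, 80 and 81 days old, spleens of 0.12 and 0.16 g). All 4 mice were 129Sv and carried floxed RBP-J, which encodes the DNA-binding partner of Notch, so the wild type mice were wild type at Ren1d only. In the leukaemic mice cre recombinase stood at both Ren1d alleles, a renin gene, which ties its expression to cells that use the renin promoter, and the labels describe their spleens as B cell leukemic. Leukaemic replicate 2 was male and the other mice were female. RNA of the whole spleen was hybridised to 1 array per mouse, and values are log2 expression, so a difference of 1 is 2-fold. Age, spleen weight and cre differed fully between the groups and their parts cannot be told apart from that of the leukaemia.

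D-type cyclins bind CDK4 and CDK6, and the complexes phosphorylate the retinoblastoma protein RB, which then releases E2F transcription factors that switch on genes of DNA replication. The INK4 proteins, among them p16Ink4a (from Cdkn2a) and p18Ink4c (from Cdkn2c), block CDK4 and CDK6, while the CIP/KIP proteins p21 (Cdkn1a) and p27 (Cdkn1b) mainly restrain CDK2. The Cdkn2a locus also encodes p19Arf, which binds the MDM2 protein and so frees p53, and p53 in turn activates Cdkn1a and Mdm2. In precursor B cells cyclin D3 is the D-type cyclin known to be needed for expansion at the pre-B stage.

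The 4 regulatory windows printed here are shown because they belong to the kinases, the cyclin and the inhibitor that were higher in leukaemic spleens. Each is the 250 bases before a RefSeq transcription start (build GRCm38.p6, from C57BL/6J, not the 129Sv strain of these mice), written 5′ to 3′ on the strand of the gene. Capitals mark the E box CACGTG, the word bound by Myc and related factors, in the Cdk4 and Cdk6 windows.

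Cdk4, chr10:127063285-127063534, plus strand: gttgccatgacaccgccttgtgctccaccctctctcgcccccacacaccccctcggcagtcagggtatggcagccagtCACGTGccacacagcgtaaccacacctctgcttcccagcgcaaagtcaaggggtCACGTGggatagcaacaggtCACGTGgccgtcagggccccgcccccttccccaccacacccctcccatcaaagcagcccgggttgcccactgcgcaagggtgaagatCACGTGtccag
Cdk6, chr5:3343643-3343892, plus strand: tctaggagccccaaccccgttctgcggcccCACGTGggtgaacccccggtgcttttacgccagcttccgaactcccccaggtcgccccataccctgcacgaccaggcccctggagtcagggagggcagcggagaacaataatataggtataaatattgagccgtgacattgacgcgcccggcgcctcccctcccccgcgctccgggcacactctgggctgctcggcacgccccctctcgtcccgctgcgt

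In the next windows, of Cdkn2c and Ccnd3 at the more upstream of their annotated starts, capitals mark the GC box GGGCGG (or CCGCCC on the other strand), which is bound by Sp1 family factors. The window of the other start of each gene is not printed, and that of Ccnd3 lies far downstream (chr17:47593217-47593466). Which start was used in these spleens was not tested.

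Cdkn2c, chr4:109666757-109667006, minus strand: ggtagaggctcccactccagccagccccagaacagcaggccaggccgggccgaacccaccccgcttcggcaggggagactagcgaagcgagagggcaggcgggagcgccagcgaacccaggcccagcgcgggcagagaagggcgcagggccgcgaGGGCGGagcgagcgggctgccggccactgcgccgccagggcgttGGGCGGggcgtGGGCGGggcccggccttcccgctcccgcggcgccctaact
Ccnd3, chr17:47504801-47505050, plus strand: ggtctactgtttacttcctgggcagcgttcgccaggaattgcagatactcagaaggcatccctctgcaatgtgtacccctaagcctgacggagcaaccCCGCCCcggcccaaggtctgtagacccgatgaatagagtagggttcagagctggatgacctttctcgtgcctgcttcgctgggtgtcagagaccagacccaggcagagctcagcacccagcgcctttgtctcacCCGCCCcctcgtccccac

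Both strands were searched in 13 windows of 9 of the 10 genes (all but Ccnd2). The E box stood in 2 of these windows and in 6.02% of the 32851 windows of the RefSeq table. Cdk4 held 4 copies, whose 5′ ends lay 172, 118, 98 and 11 bases before the start, and Cdk6 held 1, at 220 bases. The GC box stood in 8 windows, against 32.7% of all windows. Of the E2F words TTTGGCGC, TTTCGCGC and TTTCCCGC, 1 match was found, in the upstream Cdkn2a window at 99 bases, and 1.53% of all windows held a match. No match of 1 motif overlapped a match of another in the members' windows. A match is a run of letters and not evidence that a factor binds there.

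Among the 8 genes, Ccnd2 was lower and Ccnd3, Cdk4, Cdk6 and Cdkn2c were higher in both leukaemic spleens than in either wild type spleen, by 1.34- to 1.63-fold. Mdm2 was likewise higher (1.25-fold) and Cdkn1b lower (1.13-fold). Unlike the first 5, these genes did not reach an unadjusted limma p under 0.05. None of the 8 passed the test across all genes (limma with Benjamini-Hochberg adjustment, threshold 0.05), where the smallest adjusted p was 0.0588, for Ccnd2. Over all genes, 2.46% were called, 1.43% higher and 1.03% lower. An unadjusted limma p under 0.05 was reached by 5 of the 8 members, against 20.7% of all genes. Arrays did not overlap between the groups for 7 of the 8, with 5 higher and 2 lower, against 49.2% of all genes, 23.0% higher and 26.2% lower. The median difference of the 8 was 0.42 (log2), against -0.03 over all genes. The members, and the lists used below, were chosen with earlier results of these data known. Their shares and medians beside those of all genes are therefore descriptions and not tests. An exact permutation test of 1 gene in 2 against 2 mice has a smallest two-sided p of 0.333 and cannot pass.

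Of the D-type cyclins, Ccnd2 encodes the cyclin that quiescent B cells raise after antigen receptor stimulation. It read 10.78 and 10.91 in leukaemic replicates 1 and 2, against 11.63 and 11.47 in wild type replicates 1 and 2. Both leukaemic values were below both wild type values, and the gap between the groups was wider than the gap between the mice of either group. Ccnd2 averaged 10.85 ± 0.09 in leukaemic and 11.55 ± 0.11 in wild type spleens (SD, n = 2 each), 1.63-fold lower, with a log2 difference of -0.70 (SE 0.14, 95% interval -1.04 to -0.36, limma adjusted p = 0.0588).

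Ccnd3 moved the other way. It read 11.68 and 11.67 in the leukaemic and 11.11 and 11.27 in the wild type spleens, so the leukaemic values were nearly equal and both above the wild type ones. The difference was 0.49 (SE 0.14, 95% interval 0.15 to 0.82, limma adjusted p = 0.117). Within each array, Ccnd2 minus Ccnd3 was -0.89 and -0.76 in the leukaemic spleens and 0.52 and 0.20 in the wild type spleens, a shift of -1.19. Its exact two-sided permutation p was 0.333, the smallest possible with these mice, and 0.50 adjusted over the 3 pairs of genes compared. These within-array values did not overlap between the groups, and they do not give the ratio of the transcripts, because probe sets differ in brightness.

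Ccnd1, which encodes the remaining D-type cyclin, was read from a list of other G1 and S phase genes. It had 8.97 and 9.15 in the leukaemic and 10.08 and 9.93 in the wild type spleens. Its log2 difference was -0.95 (SE 0.15, limma adjusted p = 0.0328), so that Ccnd1 fell while Ccnd2 did not pass and Ccnd3 had a difference of the opposite sign. The call of Ccnd1 was lost without wild type replicate 1 (difference -0.87), wild type replicate 2 (-1.02) or leukaemic replicate 1 (-0.86). Among 74 genes of the G1, RB and p53 lists, Ccnd1 had the profile over the 4 arrays closest to that of Ccnd2.

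**Figure D1:**
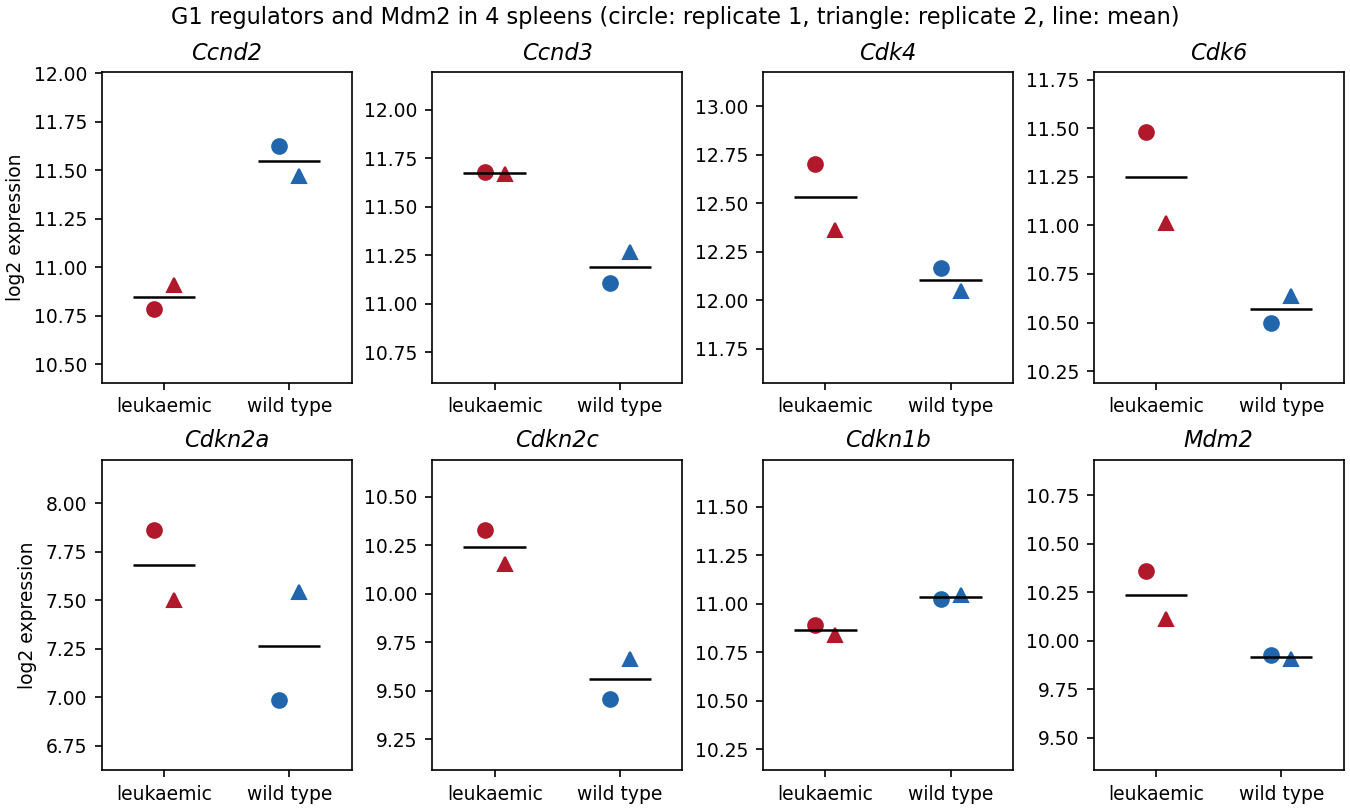
Log2 expression (vertical axis, each panel spanning 1.6) of the 8 measured genes in leukaemic (red, left) and wild type (blue, right) spleens. Circles are replicate 1, triangles replicate 2 and lines the group means. Ccnd2 and Cdkn1b lie lower in both leukaemic mice, Cdkn2a overlaps between the groups, and the other 5 genes lie higher.

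The kinase genes were both higher in leukaemic spleens, with a wide gap between the leukaemic mice. Cdk6, the partner of D-type cyclins that is prominent in blood cell progenitors, read 11.48 and 11.01 in leukaemic replicates 1 and 2, against 10.50 and 10.64 in the wild type spleens. The difference was 0.68 (SE 0.19, 95% interval 0.23 to 1.13, limma adjusted p = 0.105). It was 0.91 without leukaemic replicate 2, where Cdk6 was called (limma adjusted p = 0.0435), and 0.45 without leukaemic replicate 1. With 1 leukaemic mouse the spread comes from the wild type pair pooled over all genes (SE 0.30 for every member), so that call carries no information on the spread between leukaemic mice.

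Cdk4 had 12.70 and 12.36 in the leukaemic and 12.16 and 12.05 in the wild type spleens. Leukaemic replicate 2 stood 0.25 above the wild type mean and leukaemic replicate 1 stood 0.59 above it. The difference was 0.42 (SE 0.16, 95% interval 0.03 to 0.82, limma adjusted p = 0.210). Cdk6 minus Cdk4 within an array was -1.22 and -1.35 in the leukaemic and -1.67 and -1.41 in the wild type spleens, a shift of 0.26 (exact two-sided permutation p = 0.333, 0.50 adjusted over 3 pairs). That shift was 0.13 without wild type replicate 1 and 0.39 without wild type replicate 2.

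The inhibitors differed in size and direction. Cdkn2c, whose product p18Ink4c binds CDK6 and CDK4, read 10.33 and 10.15 in the leukaemic and 9.45 and 9.66 in the wild type spleens. The values did not overlap, and Cdkn2c averaged 10.24 ± 0.12 in leukaemic and 9.56 ± 0.15 in wild type spleens (SD, n = 2 each). Its difference of 0.68 (SE 0.15, 95% interval 0.32 to 1.04, limma adjusted p = 0.0665) was as large as that of Cdk6. Of the 74 genes of the G1, RB and p53 lists, Ccne2 and Dtl were closest in profile to Cdkn2c. Ccne2 encodes a cyclin of the step into S phase and Dtl a ubiquitin ligase adaptor. Their Euclidean distances were 0.034 and 0.056 between profiles centred on their means (log2, 4 arrays), and their own differences were 0.66 and 0.69. Only listed genes could be named as close, and shared regulation was not tested.

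Cdkn2a read 7.86 and 7.50 in the leukaemic and 6.99 and 7.54 in the wild type spleens, and the groups overlapped. The difference of 0.42 (SE 0.22, 95% interval -0.11 to 0.95, limma adjusted p = 0.364) was 0.14 without wild type replicate 1 and 0.70 without wild type replicate 2. Genes of retina, lens and neurons, used as a guide to low signal, had 4-array means with a median of 6.45. The highest mean was 8.18, for the lens gene Bfsp2, which read 10.26 in leukaemic replicate 1. Apart from Bfsp2, left out after its values were seen, these means reached up to 7.46. The mean of Cdkn2a, 7.47, lay within the full range and just above the highest mean without Bfsp2. Its signal is therefore low and may be close to background. Its probe set lists RefSeq transcripts of both products of the locus, and p16Ink4a and p19Arf cannot be told apart here. Cdkn2c minus Cdkn2a shifted by 0.26 (exact two-sided permutation p = 0.667, also adjusted over 3 pairs), and by 0.43 without wild type replicate 1, 0.09 without wild type replicate 2 and 0.17 without leukaemic replicate 2. The low signal of Cdkn2a limits this value.

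Cdkn1b, the gene of p27, varied least. It had 10.89 and 10.84 in the leukaemic and 11.02 and 11.05 in the wild type spleens, lower in both leukaemic mice but by a small amount. The difference was -0.17 (SE 0.13, 95% interval -0.49 to 0.15, limma adjusted p = 0.574). A second, dimmer Cdkn1b probe set read 8.29 and 8.37 in the leukaemic and 8.30 and 8.42 in the wild type spleens, a difference of -0.03 (SE 0.14), and there the groups overlapped.

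Mdm2, the negative regulator of p53, had 10.36 and 10.11 in the leukaemic and 9.93 and 9.91 in the wild type spleens. The wild type spleens differed by 0.02 and the leukaemic spleens by 0.25. The difference between the groups was 0.32 (SE 0.15, 95% interval -0.03 to 0.68, limma adjusted p = 0.293), and 0.20 without leukaemic replicate 1. Leukaemic replicate 1 was the farther of the leukaemic mice from the wild type mean in 7 of the 8 genes, the exception being Cdkn1b.

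**Figure D2:**
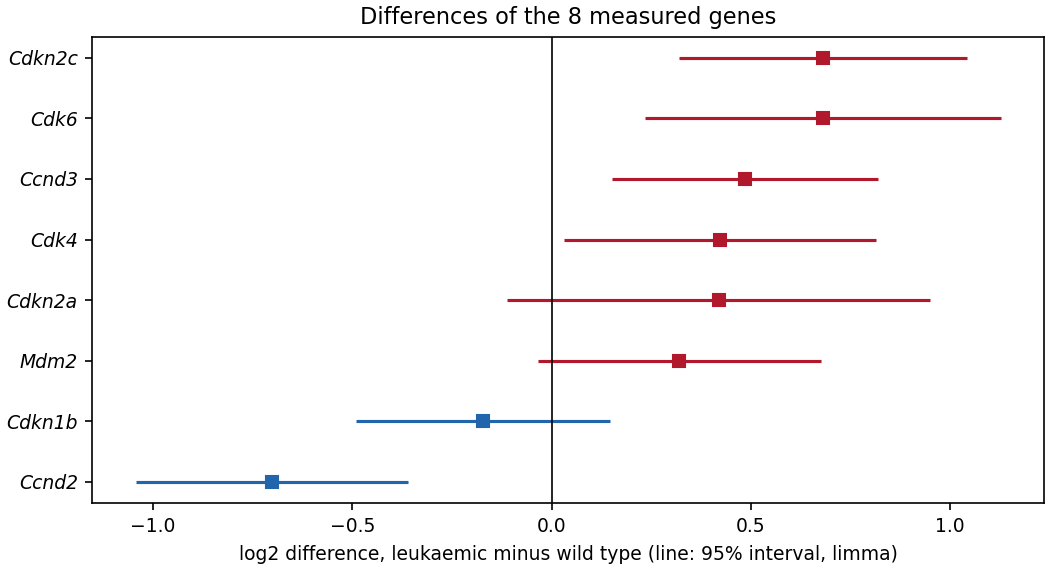
Log2 difference, leukaemic minus wild type (horizontal axis), of the 8 measured genes, with the 95% interval of the limma fit, which is not adjusted for the number of genes. The intervals of Cdkn2c, Cdk6, Ccnd3 and Cdk4 lie above 0 and that of Ccnd2 below it, while those of Cdkn2a, Mdm2 and Cdkn1b include 0.

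The other genes of the pathway were read from 5 lists with 89 measured genes, of which 6 rose and 2 fell, each at a limma adjusted p under 0.05. By the same threshold, 1.43% of all genes were called higher and 1.03% lower. Of 19 G1 and S phase partners, 1 rose and 1 fell, with a median difference of 0.26. Cks1b, a CDK-binding subunit that helps SCF-Skp2 mark p27 for degradation, had 11.62 and 11.38 in the leukaemic and 10.71 and 10.61 in the wild type spleens, a log2 difference of 0.84 (SE 0.15, limma adjusted p = 0.0449). Ccnd1 was the gene that fell. Among the 74 genes of the G1, RB and p53 lists, the profile closest to that of Cdk6 was that of Cdk2 (distance 0.12). Cdk2 encodes the kinase partner of cyclins E and A. Next came Skp2 (0.15), which encodes the ligase subunit acting on p27. Cdk2 and Skp2 had differences of 0.64 and 0.81, and neither passed (limma adjusted p = 0.0943 and 0.0665).

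In the RB and E2F family 3 of 16 genes rose and none fell, against 1.43% and 1.03% of all genes, and the median difference was 0.37. An unadjusted limma p under 0.05 was reached by 7 of the 16, against 20.7% of all genes. E2f7, an E2F repressor that is itself switched on by E2F, had 10.35 and 9.82 in the leukaemic and 8.53 and 8.97 in the wild type spleens, a difference of 1.34 (SE 0.23, limma adjusted p = 0.0395). Lin9, a subunit of the MuvB complex that works with E2F, B-Myb and FoxM1, had 9.39 and 9.35 in the leukaemic and 8.25 and 8.20 in the wild type spleens, a difference of 1.14 (SE 0.13, limma adjusted p = 0.0171). The third was E2f3, an activating E2F, named after its values were seen, with a difference of 1.12 (SE 0.17, limma adjusted p = 0.0319). The pocket protein genes went unlike ways without passing. Rb1, the retinoblastoma gene, named after its values were seen, and Rbl2, its relative p130, had differences of -0.20 and -0.34, and Rbl1, the relative p107 that E2F switches on, had 0.55 (limma adjusted p = 0.55, 0.30 and 0.085). Among the same 74 genes, Rbl1 had the profile closest to that of Ccnd3 (distance 0.068), followed by Lin54, another MuvB subunit (0.16).

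On the p53 side, 1 of 15 regulators rose and 0 of 24 targets passed the limma test, with median differences of 0.07 and 0.04. The shares over all genes were 1.43% called higher and 1.03% lower, and lists this short cannot tell such counts from these shares. The listed targets Bax and Rrm2b were not measured. Chek1, the checkpoint kinase of replication stress, had 10.71 and 10.69 in the leukaemic and 9.33 and 9.42 in the wild type spleens. Its log2 difference of 1.32 (SE 0.14, limma adjusted p = 0.0108) had the smallest p of the 89 genes. Among the targets, 7 of 24 had an unadjusted limma p under 0.05 (5 higher and 2 lower), against 20.7% of all genes. The smallest p belonged to Apaf1, the scaffold of the apoptosome, with a difference of 0.76 (SE 0.15, limma adjusted p = 0.0520), and to Ckap2, a spindle protein, with 0.99 (SE 0.21, limma adjusted p = 0.0640). Among the 74 genes of the G1, RB and p53 lists, Mdm2 and Cdk4 shared the nearest profile, that of Phlda3 (distances 0.12 and 0.12). Next came Lin54 for Mdm2 (0.14) and Aen for Cdk4 (0.13). Phlda3 and Aen are p53 targets, as were 24 of the 74 candidates. Phlda3 had a difference of 0.31 and did not pass (limma adjusted p = 0.383). Whether p53 acted on these genes was not tested. The genes nearest to Cdkn1b were Cdkn2b and Sesn2 (0.11 and 0.12), where Cdkn2b, at a 4-array mean of 7.40, lay within the range of the low signal genes, and Rbl2 came second for Ccnd2 (0.37, against 0.25 for Ccnd1).

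Of 15 regulators of the Cdkn2a locus, Ezh2 rose and Cbx7 fell, against 1.43% of all genes called higher and 1.03% lower. Ezh2, the Polycomb methyltransferase, had 12.09 and 12.24 in the leukaemic and 11.12 and 11.30 in the wild type spleens (difference 0.96, SE 0.15, limma adjusted p = 0.0328). Cbx7, a Polycomb chromodomain protein, had 8.08 and 8.05 in the leukaemic and 8.91 and 8.85 in the wild type spleens (difference -0.82, SE 0.13, limma adjusted p = 0.0362). Of these 8 called pathway genes, 0 were called without wild type replicate 1 (limma adjusted p of 0.114 to 0.160) and 0 without wild type replicate 2 (0.145 to 0.179). Without leukaemic replicate 1 there were 5, with Ccnd1, Cks1b and Cbx7 lost (Cks1b 0.72, Cbx7 -0.83). Without leukaemic replicate 2 there were 6, with Cbx7 (-0.80) and Ezh2 (0.88) lost.

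**Figure D3:**
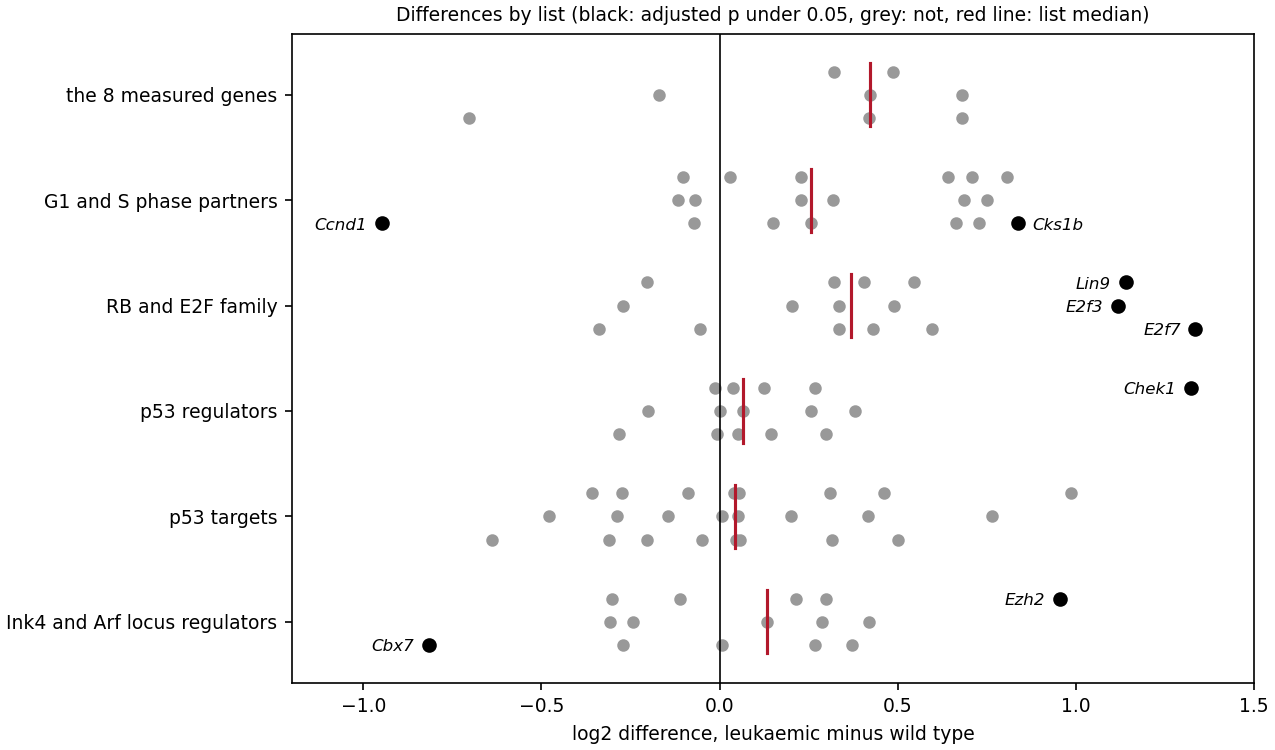
Log2 difference, leukaemic minus wild type (horizontal axis), of every measured gene of the 8 described here and of 5 pathway lists. Black points passed the limma test at an adjusted p under 0.05 and are named, grey points did not, and red lines are list medians, which run from 0.04 in p53 targets to 0.42 in the 8 genes.

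Mean levels of cell type and proliferation markers were read on the same arrays. Precursor B cell markers averaged 10.45 and 10.69 in the leukaemic and 8.02 and 7.89 in the wild type spleens, where 7 of 10 rose, led by the surrogate light chain gene Igll1 (log2 difference 5.47, SE 0.14, limma adjusted p = 5.81e-05) and Enpep. General B cell markers averaged 11.54 and 11.82 in the leukaemic and 11.78 and 11.56 in the wild type spleens, with Ebf1 the 1 of 7 that rose and Cd22 the 1 that fell. Replication and mitosis genes averaged 11.66 and 11.51 in the leukaemic and 10.88 and 11.16 in the wild type spleens. All 19 had differences above 0, and 2 rose, the spindle checkpoint genes Bub1 and Bub1b. For comparison, 8465 of all 19297 genes had differences above 0, and 1.43% were called higher and 1.03% lower.

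Markers of other spleen cells were lower. The mean of 9 T cell genes was 8.39 and 9.05 in the leukaemic and 10.37 and 9.99 in the wild type spleens, and 6 fell, led by Cd3g and Cd3e. The mean of 9 neutrophil genes was 9.68 and 10.42 in the leukaemic and 11.15 and 11.17 in the wild type spleens, and 3 fell, among them Camp and Csf3r. None of 10 macrophage or 9 erythroid genes passed the limma test, where 8 and 5 were lower at an unadjusted p under 0.05. Of all 19297 genes, 1.03% were called lower and 2050 were lower at an unadjusted limma p under 0.05. In RNA of a whole spleen, fewer cells of a type and less RNA per cell cannot be told apart. The part of cell makeup and of proliferation in the differences of the G1 genes was not tested.

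**Figure D4:**
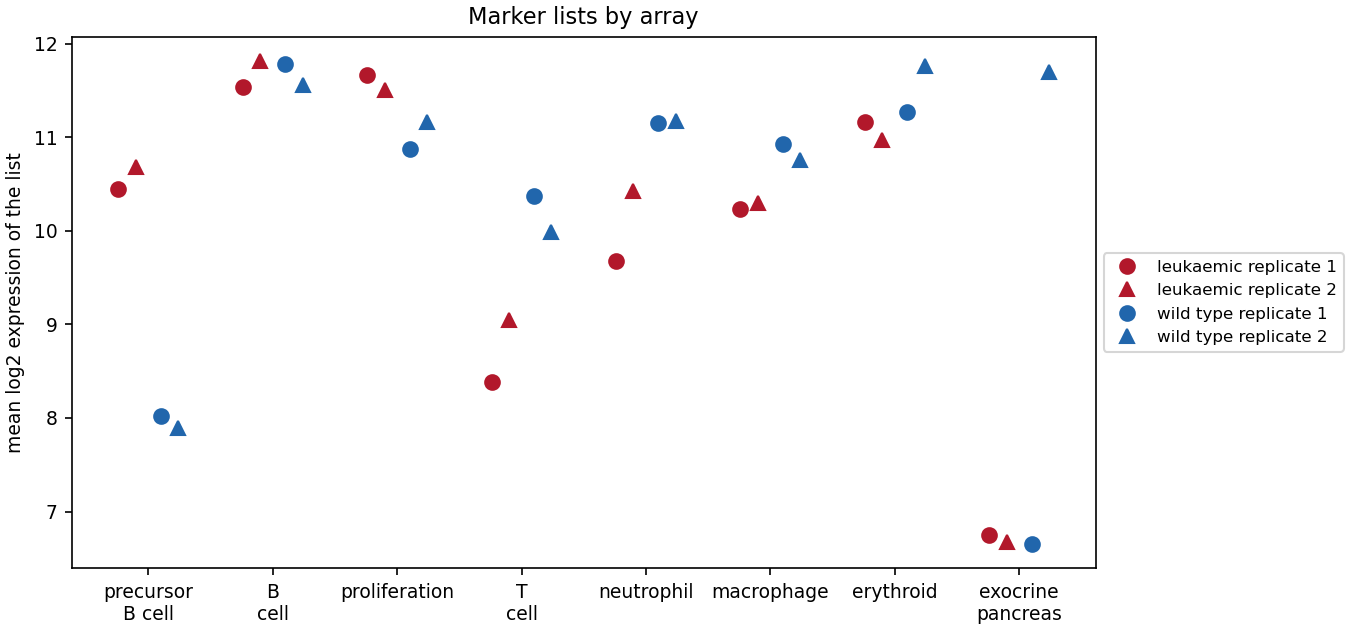
Mean log2 expression (vertical axis) of 8 marker lists on each array, leukaemic in red and wild type in blue, circles for replicate 1 and triangles for replicate 2. Precursor B cell and proliferation lists lie higher and T cell, neutrophil, macrophage and erythroid lists lower in both leukaemic spleens. The erythroid gap is narrow between leukaemic replicate 1 and wild type replicate 1. Exocrine pancreas genes stand out in wild type replicate 2.

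Wild type replicate 2 also carried pancreas transcripts, with 14 of 14 acinar genes at least 1 above the other arrays (by 3.25 to 6.12). Without that array the differences were -0.78 for Ccnd2, 0.57 for Ccnd3, 0.37 for Cdk4, 0.75 for Cdk6 and 0.79 for Cdkn2c, against -0.70, 0.49, 0.42, 0.68 and 0.68 with it, and none of the members was called. They were 0.31 for Mdm2 and -0.16 for Cdkn1b, against 0.32 and -0.17.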

How the data were processed

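The deposited values are log2 expression for each probe set on each array, made by the authors, and the submitters' processing notes name RMA, limma 3.12.1 and R 2.15.0. No setting or genome build is given in the sources used here. Samples were grouped by title. The table held 23309 probe sets, of which 20729 carried 1 gene symbol, 1174 several and 1406 none in the platform annotation. Entrez identifiers of 20686 matched the mouse gene table of GRCm38.p6, and 0 symbols changed. Names came from the first class only.

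All named probe sets were fitted in R 4.3.3 by limma's lmFit and eBayes (version 3.58.1, defaults, no covariate, no filter). The brightest probe set of each of 804 genes with several was kept after the fit, and p-values were adjusted over 19297 genes by the Benjamini-Hochberg method. The fit had 2 residual and 4.83 prior degrees of freedom. The same code was run on simulated data with independent noise and added shifts of known size. Such data do not test how well the calls hold in these mice. Named genes were all members, then up to 2 called rises and 2 called falls per list, or the 2 of smallest p, and the 2 nearest profiles of each member whose arrays did not overlap. Nearest profiles were sought only among the 74 genes of the G1, RB and p53 lists. Members and lists were chosen with earlier results of these data known. Motifs were searched with Python 3.11.15. Array medians were 7.96 in both leukaemic and 8.03 and 8.02 in wild type spleens. The design text calls the replicates individual mice. The number of arrays limits the precision.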

Additional observations from a re-analysis of the deposited data

How the results depend on the processing

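Every difference of the 8 members kept its direction in all 13 alternatives (104 of 104 values). This shows little about stability, because 55 of these values equal the reported difference by construction (the setting changes only the error or adjustment, or the gene has 1 probe set), and arrays that do not overlap fix the direction of 7 members when a mouse is left out. A member was called in 7 of these values. An intensity trend in eBayes called 1 member lower (Ccnd2, limma adjusted p = 0.0402) and none higher. Robust eBayes called 1 higher and 1 lower (Cdkn2c, 0.0456, and Ccnd2, 0.0371). With all arrays, the adjusted p of Ccnd2 ranged from 0.0253 to 0.0687 over the alternatives. Leaving out each mouse in turn gave 0 to 1 members higher (Cdk6 without leukaemic replicate 2), 0 to 8 pathway genes higher and 0 to 2 lower, and 0 to 450 genes higher and 0 to 593 lower. Over all genes, 12 were higher and 26 lower without wild type replicate 1, 0 and 0 without wild type replicate 2 (3142 at an unadjusted limma p under 0.05), and 450 and 593 without leukaemic replicate 2. In those fits 1 residual degree of freedom remains, and the prior degrees of freedom were infinite without a leukaemic mouse and 2.79 without a wild type one.

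The replicate number as a block called 2 members higher (Cdkn2c and Cdk6, limma adjusted p = 0.0319 and 0.0386) and 1 lower (Ccnd2, 0.0253), 15 pathway genes higher, and 785 genes higher and 908 lower. The mice are individuals that share only a number, and deviations of same-numbered arrays correlated at -0.089 over 19297 genes.

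Quantile normalization called 168 genes higher and 93 lower, with 3 pathway genes higher. Robust eBayes called 501 and 473, with 12 pathway genes higher. With all probe sets in the fit, 121 genes were lower. Centring on array medians gave 350 higher and 147 lower, 70.4% of calls higher against 58.1% as deposited (276 and 199). Keeping 1 probe set per gene before the fit, chosen after seeing the data, called 0 members. The cause was not tested. No shift was computed for Cdkn1a minus Cdkn1b, because Cdkn1a was not analysed.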

Other observations

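Some genes and lists differed between mice of 1 group. Bfsp2, a filament protein of the lens, read 10.26 in leukaemic replicate 1 and 7.55 in leukaemic replicate 2, against 7.58 and 7.33 in the wild type spleens (limma adjusted p = 0.351). Dntt, the template-independent DNA polymerase of early lymphoid precursors, read 6.51 and 8.05 in leukaemic replicates 1 and 2, against 6.46 and 6.54 in the wild type spleens, and was picked out after its values were seen. E2f2, an E2F gene also picked out after its values were seen, read 9.99 and 10.04 in the leukaemic spleens, against 9.19 and 10.17 in wild type replicates 1 and 2. The erythroid list averaged 11.16 and 10.97 in the leukaemic spleens, against 11.27 and 11.76 in wild type replicates 1 and 2.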
